A study of Mus musculus with 8 samples.

Results

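The RNA levels of 10 genes that control the making of mitochondria were compared between the tongues of wild type (WT) and PABPN1A17/+ (A17/+) mice. The genes were taken as a list of known regulators: Ppargc1a, Ppargc1b, Perm1, Esrra, Esrrg, Ppara, Ppard, Nrf1, Gabpa and Tfam. This list was chosen with earlier results of these data known. Ensembl identifiers were matched to symbols, and 10 of 10 were found among the 19857 genes of the count table. The 8 libraries came from 4 WT and 4 A17/+ female mice aged 12 months, each from 40 cryosections of 1 tongue, and libraries are named by genotype and replicate number (WT 1 to 4, A17/+ 1 to 4). A17/+ mice carry 1 copy of Pabpn1 with a lengthened alanine stretch and 1 normal copy. They are used to model oculopharyngeal muscular dystrophy, in which eyelid and swallowing muscles weaken late in life. Counts at the 3' end of the RNA do not read the lengthened stretch, so they do not check the genotype.

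Mitochondria are assembled from proteins encoded mostly in the nucleus, and muscle fibres adjust their number to the demand for ATP. The co-activators PGC-1alpha (Ppargc1a) and PGC-1beta (Ppargc1b) bind no DNA themselves. They dock on transcription factors at the promoters of respiratory genes. These factors are the oestrogen-related receptors (Esrra, Esrrg), the fatty acid sensing receptors PPARalpha and PPARdelta (Ppara, Ppard), and NRF1 and GABPA, which drive many respiratory chain genes and Tfam. TFAM coats mitochondrial DNA and starts its transcription. PERM1 is a muscle protein whose gene is switched on by PGC-1 and oestrogen-related receptors and which in turn raises oxidative genes.

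The tongue sections contained muscle, epithelium and other tissue. All 15 skeletal muscle fibre markers were above 0 in each of the 8 libraries, and they summed to 91030 to 123500 CPM (counts scaled by library size, with TMM factors) in WT and 121900 to 142300 CPM in A17/+. Tongue epithelium markers summed to 14840 to 16390 CPM in WT and 10540 to 20940 CPM in A17/+. Library totals ran from 205696 to 485326 unique molecules, and the smallest was WT 4. On the first principal component of all genes, WT 1 (-7.21) and A17/+ 1 (4.27) were the libraries closest to the opposite genotype. Salivary gland markers reached 2077 CPM in WT 1 and at most 59.9 CPM elsewhere. Leaving out 1 of these libraries could change a call or direction, or move a value by over 1.5 times. In such cases the value without it, or the range over single libraries left out, is given. In bulk tissue, fewer cells of a type and less RNA per cell cannot be told apart.

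Of the 10 regulators, 5 had enough counts for the model fitted across all genes (edgeR's quasi-likelihood test): Ppargc1a, Perm1, Nrf1, Gabpa and Tfam. The other 5, Ppargc1b, Esrra, Esrrg, Ppara and Ppard, fell below the filter, with 32 to 56 counts each over the 8 libraries, and were compared by an exact permutation test. Perm1 rose 3.43-fold in A17/+ tongue and was the only 1 of the 5 fitted regulators past the threshold, an adjusted p under 0.05. It was low in WT and could enter the fit through its A17/+ counts, so the 5 fitted do not stand for all 10. No fitted regulator fell. Among all 5066 genes fitted, 6.34% were called higher and 2.61% lower (8.94% in either direction), and 1 of 5 is too small a count to be read against those shares. The mean level was higher in A17/+ for Esrra, Esrrg, Ppara and Ppard, but none of the 5 regulators below the filter reached a permutation p under 0.05. Of all genes below the filter with 15 or more counts, 9.24% reached it in either direction.

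**Figure D1:**
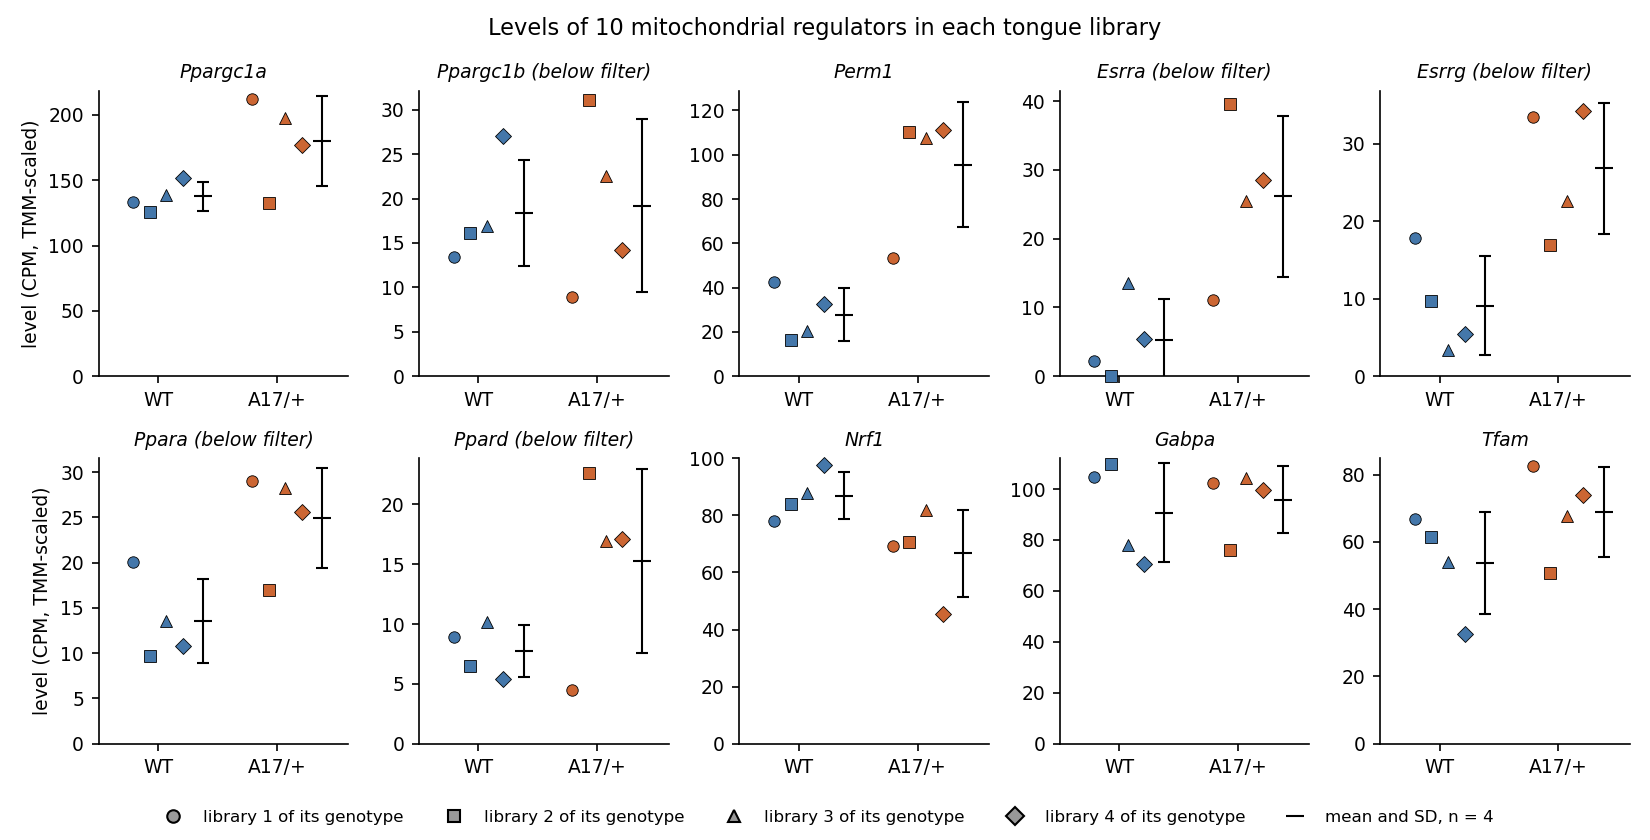
Level of each regulator in CPM (y axis, linear, from 0) in the 4 WT and 4 A17/+ libraries (x axis). Symbols mark single libraries by replicate number, and the bars give the mean and SD (n = 4), with the lower bar of Esrra in WT cut at 0. The 4 A17/+ values of Perm1, from 53.5 to 111 CPM, lie above all WT values, which reach 42.3 CPM, and the genotypes overlap for the other 9 genes.

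Promoter sequences were available for 9 of the 10 regulators as 13 RefSeq windows (build GRCm38.p6), each from 250 bases before to 50 after an annotated start. Stretches are shown for 4 genes: Perm1 and Esrra, which have the largest ratios of A17/+ to WT means, Gabpa, whose start region also serves Atp5j, and Tfam, a known target of GABP. In the lines below, capitals mark the motif matched and each stretch runs 5' to 3' on the strand of its gene. The Perm1 stretch is chr4:156215677-156215867, plus strand, and its capitals are the reverse complement of AAGGTCA, the core that oestrogen-related receptors bind. The Esrra stretch is chr19:6921814-6922058, minus strand, with the NRF1 core GCATGCG. Both end just before the first annotated base of the gene model.
Perm1: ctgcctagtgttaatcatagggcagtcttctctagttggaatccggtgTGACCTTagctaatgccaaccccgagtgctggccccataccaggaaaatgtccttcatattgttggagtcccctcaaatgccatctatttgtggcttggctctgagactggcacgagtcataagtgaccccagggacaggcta
Esrra: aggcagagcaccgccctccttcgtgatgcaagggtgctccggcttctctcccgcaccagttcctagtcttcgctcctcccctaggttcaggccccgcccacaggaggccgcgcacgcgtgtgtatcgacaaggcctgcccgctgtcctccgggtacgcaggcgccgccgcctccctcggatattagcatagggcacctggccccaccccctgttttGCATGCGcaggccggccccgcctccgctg
Gabpa, ETS core: gagggtaagtgCTTCCGGgtccctcagct
Gabpa, NRF1 core: actgcactgtaCGCATGCGtattctggcc
Tfam, ETS core: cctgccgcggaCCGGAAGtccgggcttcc
The Gabpa stretches are chr16:84835020-84835048 and chr16:84835105-84835133, plus strand, and the Tfam stretch is chr10:71238074-71238102, minus strand. CCGGAAG is the core that GABPA and other ETS proteins bind, and it is read on the reverse strand in Gabpa. The 8 capitals of the Gabpa NRF1 stretch hold GCATGCG on both strands, in overlapping positions.

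Motifs were searched by exact letters on both strands, and distances are counted from the RefSeq start, which in Perm1 and Esrra lies downstream of the gene model's first base where the printed stretch ends. AAGGTCA lay in 4.72% of all 32851 windows and, among the regulators, in Perm1, 202 bases before the start. The longer element TNAAGGTCA, present in 1.28% of all windows, had no match in the 13 windows. GCATGCG lay in 3.58% of all windows and in those of Esrra (34 bases before the start), Esrrg, Gabpa and Ppara. The full NRF1 palindrome lay in 0.971% of all windows and, among the regulators, in Ppara. CCGGAAG lay in 8.86% of all windows and in those of Gabpa (93 bases before the start) and Tfam (47 bases before it). The PPAR direct repeat, 2 copies of the receptor core spaced by 1 base (0.0396% of all windows), and the cyclic AMP response element TGACGTCA (1.79%) had no match in the 13 windows. The MEF2 core (3.69%) lay in 1 of the Esrrg windows. GC content varied among the regulators, with a median of 52.7% and 7 CpG dinucleotides over all windows. Perm1 had 52.3% with 4 CpG and Ppargc1a 48.7% with 5. Esrra, Tfam, Ppara and Ppard had 66.0%, 70.3%, 74.7% and 68.3%, with 21 to 30 CpG, and Gabpa had 59.3% with 22. The windows of 1 gene also differed, at 77.0% and 46.3% for Nrf1 (43 and 2 CpG) and from 44.7% to 61.3% for the 4 windows of Esrrg. A match is a description of the letters and does not show binding.

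Perm1 (ENSMUSG00000078486, mm10 chr4:156215868-156221307, plus strand) was the co-activator with a clear difference. Its level was 42.3, 16.2, 20.3 and 32.5 CPM in WT 1 to 4 and 53.5, 110.1, 107 and 111 CPM in A17/+ 1 to 4. All 4 A17/+ libraries lay above all WT libraries, which 8.57% of the fitted genes did in this direction, and A17/+ 1 was the lowest of its genotype. The means were 27.8 ± 11.9 CPM for WT and 95.5 ± 28.1 CPM for A17/+ (SD, n = 4). The edgeR log2 fold change was 1.72 (SE 0.343, 95% interval 0.88 to 2.56, adjusted p = 0.00635). These values rest on 36 counts in WT and 140 in A17/+. WT 1 to 4 held 19, 5, 6 and 6 counts, so Perm1 could pass the filter through its A17/+ counts. The edgeR fit with no filter gave 1.65 (adjusted p = 4.48e-05), in a fit that called 3.10% of all genes higher. Without WT 1 and A17/+ 1 the edgeR log2 fold change was 2.31 (adjusted p = 5.54e-05). In all 21 alternative fits Perm1 was higher in A17/+ and past the threshold, with log2 fold changes from 1.48 to 2.31 and adjusted p from 4.48e-05 to 0.0353. Skeletal muscle fibre markers averaged 111700 ± 14410 CPM in WT against 133600 ± 8585 CPM in A17/+ (SD, n = 4), with 8 of 15 called higher and 0 lower. The largest part of that sum was Ttn, at 63220 CPM in WT and 69350 CPM in A17/+, which was not called. The 8 higher included Acta1 (1156 CPM in WT, 3719 CPM in A17/+) and Mb (377 and 2105 CPM). The part of these markers in the difference of Perm1 was not tested. Plekhn1, which begins 148 bases beyond the 3' end of Perm1 on the opposite strand and was chosen after its values were seen, had 44.8 ± 19.0 CPM in WT against 58.6 ± 7.17 CPM in A17/+ (SD, n = 4; edgeR log2 fold change 0.33, adjusted p = 0.523).

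Ppargc1a (ENSMUSG00000029167, chr5:51454250-51567726, minus strand), the co-activator induced by exercise and cold, did not pass the threshold. It was measured at 134, 126, 139 and 152 CPM in WT 1 to 4 and at 212, 133, 198 and 177 CPM in A17/+ 1 to 4. The A17/+ libraries 1, 3 and 4 lay above all WT libraries and A17/+ 2 lay among them. The means were 138 ± 10.8 and 180 ± 34.5 CPM (SD, n = 4), and the edgeR log2 fold change was 0.40 (SE 0.208, 95% interval -0.11 to 0.90, adjusted p = 0.250). The interval spans folds of 0.924 to 1.87, so differences within that range are not excluded. The log2 fold change was positive in all 21 alternatives, from 0.26 (without A17/+ 1) to 0.52 (without A17/+ 2). It passed the threshold in none (lowest adjusted p 0.106, edgeR). A17/+ 2, the A17/+ library with the lowest Ppargc1a, had the highest level of Esrra among the 8 libraries. A17/+ 1 held the highest Ppargc1a level of the 8 libraries and the lowest Perm1 level of its genotype.

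Ppargc1b (ENSMUSG00000033871), the related co-activator, had 4 to 11 counts per library. Its level was 13.4, 16.2, 16.9 and 27.1 CPM in WT 1 to 4 and 8.92, 31.1, 22.6 and 14.3 CPM in A17/+ 1 to 4. The WT values all lay inside the A17/+ range. The means were 18.4 ± 6.0 and 19.2 ± 9.71 CPM (SD, n = 4), and the difference of mean log2(CPM + 1) was -0.03 (two-sided exact permutation p = 0.971). The edgeR fit with no filter gave a 95% interval of folds from 0.433 to 2.50. The 3 co-activators summed to 184 ± 22.3 CPM in WT against 295 ± 25.8 CPM in A17/+ (SD, n = 4).

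Esrra (ENSMUSG00000024955, chr19:6910977-6921813, minus strand), the oestrogen-related receptor that partners PGC-1alpha at respiratory genes, was close to the detection limit in WT. The WT libraries 1 to 4 held 1, 0, 4 and 1 of its counts, against 5, 14, 9 and 10 for A17/+ 1 to 4. The corresponding levels were 2.23, 0, 13.5 and 5.42 CPM in WT and 11.1, 39.5, 25.4 and 28.5 CPM in A17/+. The 0 in WT 2 allows up to 3 counts, or 9.70 CPM, counting error only. A17/+ 1 lay below WT 3, and the other A17/+ libraries lay above all WT libraries. The means were 5.30 ± 5.93 and 26.2 ± 11.7 CPM (SD, n = 4), a ratio of 4.94. The difference of mean log2(CPM + 1) was 2.58 with a two-sided exact permutation p of 0.0571, or 0.364 after Benjamini-Hochberg adjustment over the 5668 genes below the filter with 15 or more counts. In that family the smallest adjusted p was 0.309, and 8.13% of its genes were higher with a permutation p under 0.05. The edgeR fit over every gene with a count gave Esrra a log2 fold change of 2.24 (95% interval 0.66 to 3.82, adjusted p = 0.0115), in a fit that called 3.10% of all genes higher. Limma-trend on the deposited log2 values gave 1.53 (adjusted p = 0.0229), in a fit that called 5.02% higher. The call for Esrra therefore depended on the test, while the direction was the same in all 14 alternatives. Without WT 3 the exact permutation p was 0.0286, the smallest that the design allows, and the difference was 3.18.

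Reads at the 3' end of Esrra have a neighbour to be told apart from. Trmt112 (chr19:6909698-6911049, plus strand) overlaps the last 73 bases of Esrra on the opposite strand, and the sources used here do not say whether counting used strand. Trmt112, chosen after its values were seen, had 21.7 ± 6.26 CPM in WT against 20.2 ± 4.68 CPM in A17/+ (SD, n = 4; two-sided exact permutation p = 0.8). The log2 ratio of Trmt112 to Esrra differed by -2.65, A17/+ minus WT (exact permutation p = 0.0286). The pair was chosen with the values known, so this p gives no support of its own. The WT ratios rest on 6 counts of Esrra, with 0 in WT 2. Prdx5, which encodes a peroxiredoxin and lies 870 bases beyond the 3' end of Esrra on the same strand, was also chosen after its values were seen. It had 38.4 ± 25.8 CPM in WT against 123 ± 53.7 CPM in A17/+ (SD, n = 4; edgeR log2 fold change 1.56, adjusted p = 0.0424). Whether reads past the end of Esrra reach Prdx5 or the reverse was not tested.

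Esrrg (ENSMUSG00000026610, chr1:187608791-188214885, plus strand), the oestrogen-related receptor of oxidative muscle, was read from 8, 3, 1 and 1 counts in WT 1 to 4, against 15, 6, 8 and 12 counts for A17/+ 1 to 4. It reached 17.8, 9.70, 3.38 and 5.42 CPM in WT and 33.4, 16.9, 22.6 and 34.2 CPM in A17/+. Only A17/+ 2 lay inside the WT range, just below WT 1. The means were 9.08 ± 6.40 and 26.8 ± 8.44 CPM (SD, n = 4). The difference of mean log2(CPM + 1) was 1.63 (two-sided exact permutation p = 0.0571, adjusted 0.364). The edgeR fit with no filter gave 1.32 (95% interval 0.02 to 2.61), with an adjusted p of 0.159. Without WT 1, the library with the most Esrrg in WT, the difference was 2.00 (exact permutation p = 0.0286). Esrra and Esrrg together summed to 20.1, 9.70, 16.9 and 10.8 CPM in WT 1 to 4 and to 44.6, 56.5, 48.0 and 62.7 CPM in A17/+ 1 to 4. These sums did not overlap, although each gene alone did. They are given without a test, and the share of other such sums that separate was not computed. Of single genes below the filter with 15 or more counts, 8.13% did not overlap in this direction.

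Ppara (ENSMUSG00000022383, chr15:85734983-85802819, plus strand), a receptor that switches on fatty acid oxidation, had 20.1, 9.70, 13.5 and 10.8 CPM in WT 1 to 4 and 29.0, 16.9, 28.3 and 25.7 CPM in A17/+ 1 to 4. As for Esrrg, A17/+ 2 alone lay within the WT range, below WT 1. The means were 13.5 ± 4.64 and 25.0 ± 5.53 CPM (SD, n = 4), with a difference of mean log2(CPM + 1) of 0.86 (two-sided exact permutation p = 0.0571, adjusted 0.364). The no-filter edgeR interval for Ppara covered folds from 0.716 to 3.91 (adjusted p = 0.553).

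Ppard (ENSMUSG00000002250, chr17:28232700-28301474, plus strand), the PPAR form most prominent in muscle, had 8.92, 6.46, 10.2 and 5.42 CPM in WT 1 to 4. In A17/+ 1 to 4 it had 4.46, 22.6, 16.9 and 17.1 CPM, so that A17/+ 1 was the lowest of the 8 libraries and the other 3 were the highest. The means were 7.74 ± 2.18 and 15.3 ± 7.67 CPM (SD, n = 4), with a difference of 0.75 (two-sided exact permutation p = 0.200, adjusted 0.544). Without A17/+ 1 the Ppard difference was 1.21 (exact permutation p = 0.0286). The 4 nuclear receptors summed to 25.9 to 49.0 CPM in WT and 78.0 to 105.5 CPM in A17/+, with no overlap. This sum is also given without a test or a share of other sums. None of the 4 alone reached an exact permutation p under 0.05 over all 8 libraries. With 6 to 41 counts per gene and genotype, counting error is a large part of the spread for each receptor.

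**Figure D2:**
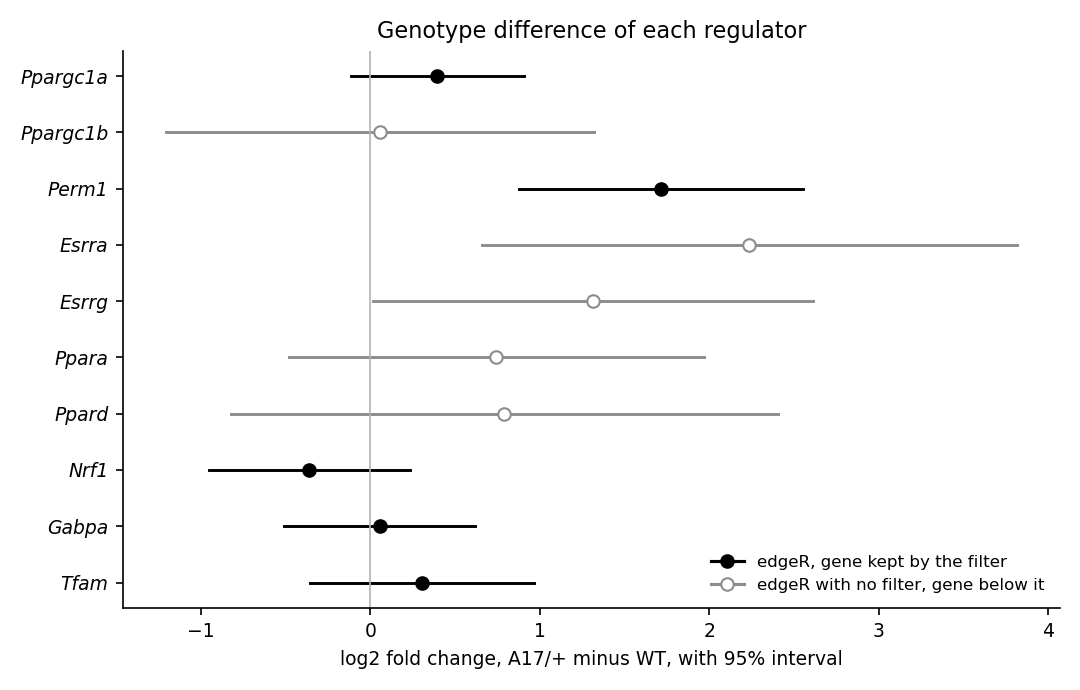
Log2 fold change of each regulator, A17/+ minus WT (x axis), with its 95% interval from edgeR. Filled points are genes kept by the filter and open points are genes below it, from the fit with no filter. The intervals of Perm1 (0.88 to 2.56), Esrra (0.66 to 3.82) and Esrrg (0.02 to 2.61) lie above 0, and adjusted p-values over all genes are under 0.05 for Perm1 and Esrra.

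Nrf1 (ENSMUSG00000058440, chr6:30047988-30153458, plus strand), the factor of respiratory chain and import genes, was the fitted regulator whose mean was lower in A17/+, without passing the threshold. It had 78.0, 84.0, 88.0 and 97.5 CPM in WT 1 to 4 and 69.1, 70.6, 81.9 and 45.6 CPM in A17/+ 1 to 4. A17/+ 3 lay within the WT range and the other A17/+ libraries lay below it. The means were 86.9 ± 8.19 and 66.8 ± 15.3 CPM (SD, n = 4). The edgeR log2 fold change was -0.36 (SE 0.242, 95% interval -0.95 to 0.23, adjusted p = 0.378), and it stayed between -0.47 and -0.24 in the 21 alternatives without passing the threshold.

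Tfam (ENSMUSG00000003923, chr10:71225464-71238280, minus strand), the packaging and transcription factor of mitochondrial DNA, had 66.9, 61.4, 54.2 and 32.5 CPM in WT 1 to 4. In A17/+ 1 to 4 it had 82.5, 50.8, 67.8 and 74.1 CPM, and A17/+ 2 lay within the WT range. The means were 53.7 ± 15.1 and 68.8 ± 13.4 CPM (SD, n = 4), with an edgeR log2 fold change of 0.31 (SE 0.269, 95% interval -0.35 to 0.97, adjusted p = 0.519). Its transcripts are short (median 899 bases, against 3318 for all genes fitted). The Tfam log2 fold change was 0.13 without WT 4 and 0.15 without A17/+ 1. With a trend of transcript length removed from each library, it was -0.24 in place of 0.31, so no direction is given for Tfam.

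Gabpa (ENSMUSG00000008976, chr16:84834925-84863779, plus strand), the DNA-binding subunit of the GABP complex, had 105, 109.9, 77.8 and 70.4 CPM in WT 1 to 4 and 103, 76.3, 105 and 99.8 CPM in A17/+ 1 to 4. The A17/+ values lay inside the WT range. The means were 90.7 ± 19.5 and 95.8 ± 13.2 CPM (SD, n = 4), and the edgeR log2 fold change was 0.05 (SE 0.230, 95% interval -0.51 to 0.62, adjusted p = 0.911). The interval covers folds from 0.703 to 1.53. Nrf1, Gabpa and Tfam summed to 231 ± 25.8 CPM in WT against 231 ± 27.8 CPM in A17/+ (SD, n = 4), while the sum over all 10 regulators was 437 to 488 CPM in WT and 568 to 675 CPM in A17/+.

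Gabpa shares its start region with a respiratory gene. Atp5j, which encodes coupling factor 6 of ATP synthase, is transcribed in the opposite direction (chr16:84827866-84835625, minus strand), and the gene models overlap by 701 bases at their 5' ends. The nearest RefSeq starts of Gabpa and Atp5j are 147 bases apart, and the ETS and NRF1 cores printed for Gabpa lie between these starts. Atp5j, chosen after its values were seen, had 75.8, 35.6, 57.5 and 10.8 CPM in WT 1 to 4 and 98.1, 350.2, 195 and 194 CPM in A17/+ 1 to 4. It rose in A17/+ (edgeR log2 fold change 2.09, SE 0.449, adjusted p = 0.0138). The log2 ratio of Atp5j to Gabpa was higher by 2.26 in A17/+ (exact permutation p = 0.0286) and did not overlap between genotypes, with a WT maximum of -0.43 and an A17/+ minimum of -0.06. Atp5j alone did not overlap between genotypes and was chosen with that known, so the p of the ratio gives no support of its own. The 2 genes were counted at 3' ends that lie on opposite sides of the shared start.

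**Figure D3:**
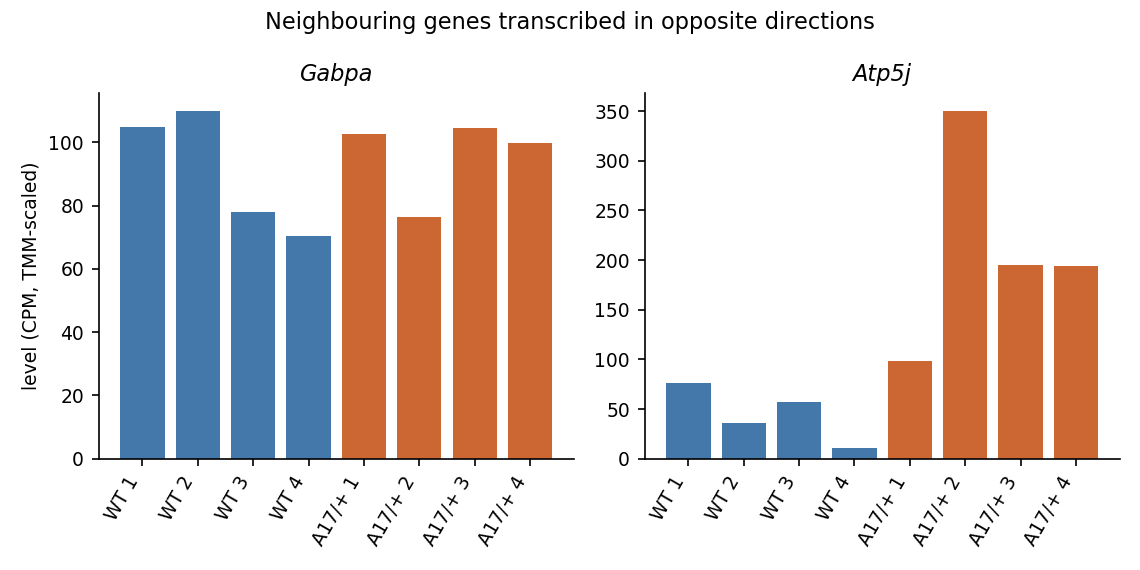
Level in CPM (y axes, linear, from 0, with a different scale in each panel) of Gabpa and Atp5j in each of the 8 libraries (x axis), 1 bar per library. Gabpa stays between 70.4 and 109.9 CPM, whereas Atp5j reaches 75.8 CPM at most in WT and at least 98.1 CPM in A17/+.

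The balance between the regulators was compared as the log2 ratio of each of the 45 pairs within a library, with 1 CPM added to each level. Of these, 11 pairs did not overlap between genotypes (two-sided exact permutation p = 0.0286 each), but no pair stayed under 0.05 after adjustment over the 45 (smallest adjusted p 0.117). The pairs share regulators and so are not independent. The share of such pairs among other genes was not computed, so the 11 are given as a description. Perm1 relative to Nrf1 had a mean log2 ratio of -1.70 in WT and 0.48 in A17/+, a difference of 2.18. Perm1 relative to Gabpa moved from -1.74 to -0.05. Ppargc1a relative to Nrf1 had a log2 ratio of 0.66 in WT and 1.42 in A17/+. Each of these pairs was among the 11. Nuclear receptors were in 7 of the other 8, with differences of 2.98 for Esrra to Nrf1, 2.03 for Esrrg to Nrf1 and 1.53 for Esrrg to Gabpa.

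Over the 8 libraries with each genotype's mean subtracted, Gabpa and Tfam varied most alike among the fitted regulators (Pearson r 0.866), and the other 9 pairs ran from -0.43 to 0.23. The genes whose pattern was most like Perm1 were Mdh2 (r 0.972), Vdac1 (0.969) and Mpc1 (0.961), which encode a citric acid cycle enzyme, the channel of the outer mitochondrial membrane and a subunit of the pyruvate carrier. For Ppargc1a they were Poldip3 (0.963), Pds5a (0.963) and Clk3 (0.954). For Nrf1 they were Setdb1 (0.968), Cdc37l1 (0.965) and Pfdn2 (0.959). For Gabpa they were Fbxl20 (0.985), Kansl1l (0.979) and Serpinb11 (0.974), and for Tfam Zdhhc21 (0.996), Myoz2 (0.978) and Nedd4 (0.974). These are the highest of the values over all genes fitted, from 8 libraries that differ in depth, and they are given as a description. Perm1 (53.5 CPM) and Vdac1 (332 CPM) were both lowest in A17/+ 1 within their genotype. Their likeness can therefore rest largely on 1 library.

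Genes around the regulators were described by lists. Of 46 partners, co-activators and upstream activators, 28 were fitted, 1 was higher and 0 lower, with a median log2 fold change of 0.04 against 0.01 over all genes fitted. Leaving out 1 library moved that median between -0.03 and 0.16 (0.16 without WT 1), so it has no stable sign. The one higher was Mef2c, a muscle transcription factor that acts on the Ppargc1a promoter, at 432 ± 58.1 CPM in WT against 638 ± 94.5 CPM in A17/+ (SD, n = 4; edgeR log2 fold change 0.56, adjusted p = 0.0416). Of 23 repressors, 13 were fitted, 1 was higher and 0 lower, with a median of 0.03 that lay between -0.05 and 0.07 when 1 library was left out (-0.04 without WT 1). The one higher was Nr1d1, the clock repressor REV-ERBalpha, at 37.1 ± 17.3 CPM in WT against 80.5 ± 9.35 CPM in A17/+ (SD, n = 4; edgeR log2 fold change 1.17, adjusted p = 0.0253). Of 22 genes of mitochondrial DNA transcription and replication, the process that Tfam serves, 9 were fitted and 0 passed in either direction, with a median of -0.16 (-0.31 without WT 2 and -0.29 without A17/+ 2). The smallest p values in that list belonged to Elac2 (log2 fold change -0.83, edgeR adjusted p = 0.123) and Primpol (-0.83, adjusted p = 0.177).

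Genes that the regulators are known to act on were higher in larger shares than the 6.34% of all genes. Of 32 targets of oestrogen-related receptors and PGC-1, 31 were fitted and 18 rose, with a median log2 fold change of 0.90 and none lower. Examples are Vdac1 (1.37, edgeR adjusted p = 0.00192), the mitochondrial creatine kinase Ckmt2 (1.19, adjusted p = 0.00278), the aspartate aminotransferase Got2 (1.30, adjusted p = 0.00486) and the citric acid cycle subunit Idh3b (1.32, adjusted p = 0.00629). Of 36 targets of NRF1 and GABP, 24 were fitted and 14 rose, with a median of 1.28. That median was 2.21 without WT 1, 1.99 without WT 2 and 2.42 without A17/+ 1. Nrf1 and Gabpa themselves did not pass the threshold. Among them were Uqcrb (2.21), Cox6c (2.60) and Atp5k (3.8), subunits of respiratory complexes III and IV and of ATP synthase, and Capns1 (2.41), the small calpain subunit. Of 35 PPAR targets, 23 were fitted and 7 rose, with a median of 0.77. They included Fabp3 (3.12), the fatty acid binding protein of muscle, Hadhb (1.74) and Ech1 (1.81) of fatty acid oxidation, and lipoprotein lipase Lpl (1.17). Of 77 nuclear subunits of oxidative phosphorylation, 62 were fitted and 52 rose, with a median of 2.49, among them Ndufs6 (3.09) and Uqcrfs1 (1.75). All the NRF1 and GABP targets that rose, except Timm17a and Capns1, are also on this list of subunits. Sdha, Sdhb, Sdhc and Sdhd are on this list and on that of ERR and PGC-1 targets. Mb is on the list of ERR and PGC-1 targets and among the muscle fibre markers. The lists are therefore not separate results. Of 22 genes of mitochondrial dynamics and turnover, 17 were fitted and 2 rose, Immt (1.11, edgeR adjusted p = 0.0165) and Phb2 (1.19, adjusted p = 0.0495), with a median of 0.27 that was 0.55 without WT 1 and 0.42 without WT 3.

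**Figure D4:**
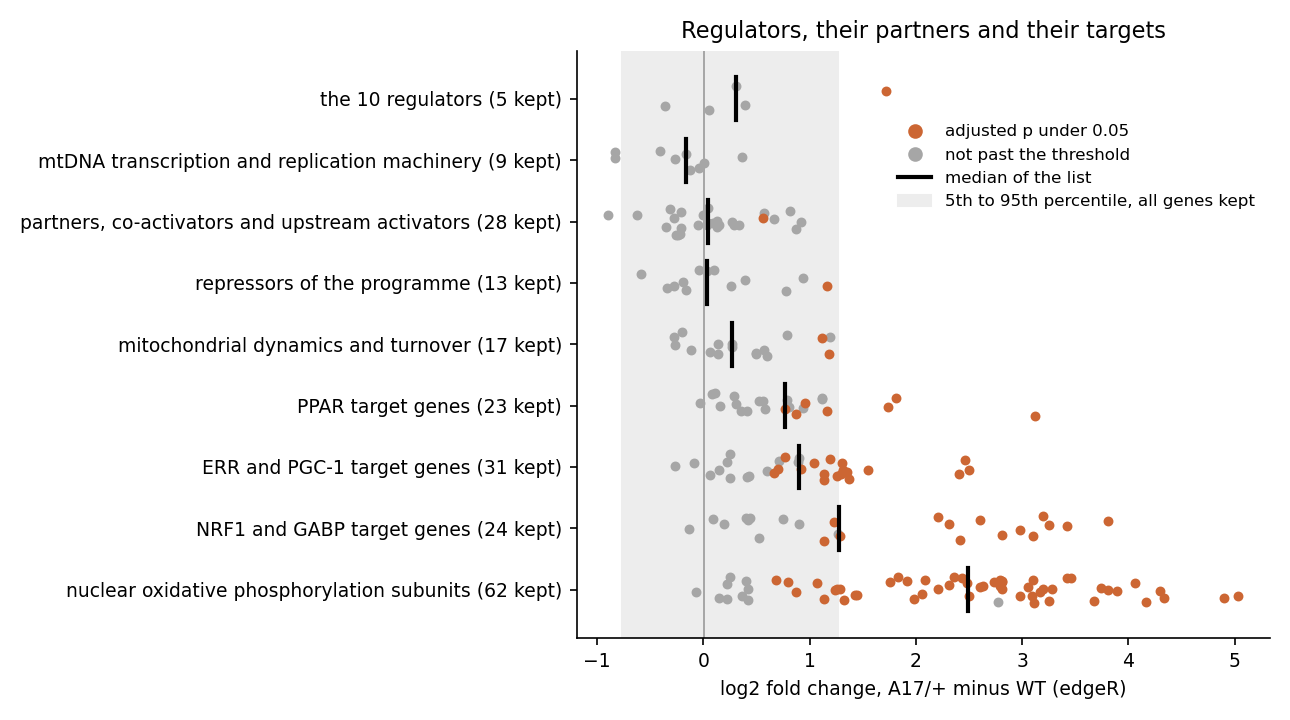
Log2 fold change, A17/+ minus WT, from edgeR (x axis) for each fitted gene of the regulators and of 8 related lists (y axis). Orange points have an adjusted p under 0.05, black bars are list medians and the grey band spans the 5th to 95th percentile of all genes fitted, -0.76 to 1.27. Medians run from -0.16 for mitochondrial DNA machinery to 2.49 for oxidative phosphorylation subunits, and the regulators lie at 0.31.

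These shares are descriptions, because the lists were chosen with earlier results of these data known. A gene low in WT can pass the filter through its A17/+ counts alone and then had to differ, so the fitted genes do not stand for all members of a list. The target lists also hold short transcripts, with a median length of 742 bases for oxidative phosphorylation, 1187 for NRF1 and GABP targets and 1959 for ERR and PGC-1 targets, against 3318 over all genes fitted. With a length trend removed, the medians were 1.69, 1.05 and 0.76. Markers of some other tissues moved with genotype as well. Of 14 fitted tongue epithelium markers, 0 were called higher and 2 lower, but 7 had a positive log2 fold change and the median was 0.15. The 2 lower were Dsp (log2 fold change -0.85, edgeR adjusted p = 0.00553) and Perp (-0.72, adjusted p = 0.00796). Among the 7 positive were Lgals7 (2.92, edgeR adjusted p = 0.0561) and Krtdap (2.79, adjusted p = 0.116). The list as a whole therefore had no single direction. Of 7 fitted endothelial markers, 0 were higher and 0 lower. Adipocyte markers summed to 211 to 403 CPM in WT and 700 to 745 CPM in A17/+, with 3 of 4 fitted genes higher. The largest part of that sum was Lpl, at 216 CPM in WT and 497 CPM in A17/+, which is also on the list of PPAR targets. Plin4, another of the 3 higher, had 48 counts in WT and 133 in A17/+. Counts in WT and A17/+ were 17 and 134 for Fabp4, 0 and 9 for Cfd, 0 and 8 for Retn, 1 and 4 for Adipoq, 1 and 3 for Plin1, 2 and 2 for Cidec and 3 and 3 for Pparg. Fibroblast markers summed to 758 to 997 CPM and 1075 to 1878 CPM, with 3 of 8 higher. Red cell markers (20.1 to 32.3 CPM in WT, 100.3 to 1333 CPM in A17/+), macrophage markers (139 to 397 and 404 to 487 CPM) and neuron and Schwann cell markers (47.4 to 92.1 and 174 to 226 CPM) did not overlap between genotypes either. The red cell sum was lowest in A17/+ 1 and highest in A17/+ 2 within its genotype, as was the sum of oxidative phosphorylation subunits. The share of other gene sums that do not overlap was not computed. The part of these markers in the target lists and in the regulators was not tested.

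Over the A17/+ libraries, some regulators ran in the order of the respiratory subunits and others did not. Perm1, Esrra, Ppard and Ppargc1b were each lowest in A17/+ 1 within their genotype, and Esrra, Ppard and Ppargc1b were highest in A17/+ 2. The summed oxidative phosphorylation subunits also lay closest to WT in A17/+ 1, with 13440 CPM in A17/+ 1 and 24450 to 32200 CPM in A17/+ 2 to 4, against 9014 to 10940 CPM in WT. From lowest to highest, Esrra, Ppard and these subunits ran A17/+ 1, 3, 4 and 2, as did the summed tongue epithelium and red cell markers. The order of A17/+ 3 and 4 is not resolved for these regulators, with 9 and 10 counts for Esrra and 6 in each for Ppard. Ppargc1a, in contrast, was highest in A17/+ 1 and lowest in A17/+ 2. Esrrg, Ppara, Gabpa and Tfam were also lowest in A17/+ 2 within their genotype, and Nrf1 was lowest in A17/+ 4. Esrra and Esrrg thus ran in different orders, which their sum does not show. With 10 regulators and 4 libraries, some orders can match by chance. The sum of Nrf1, Gabpa and Tfam was lowest in A17/+ 2 within its genotype, at 198 CPM.

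**Figure D5:**
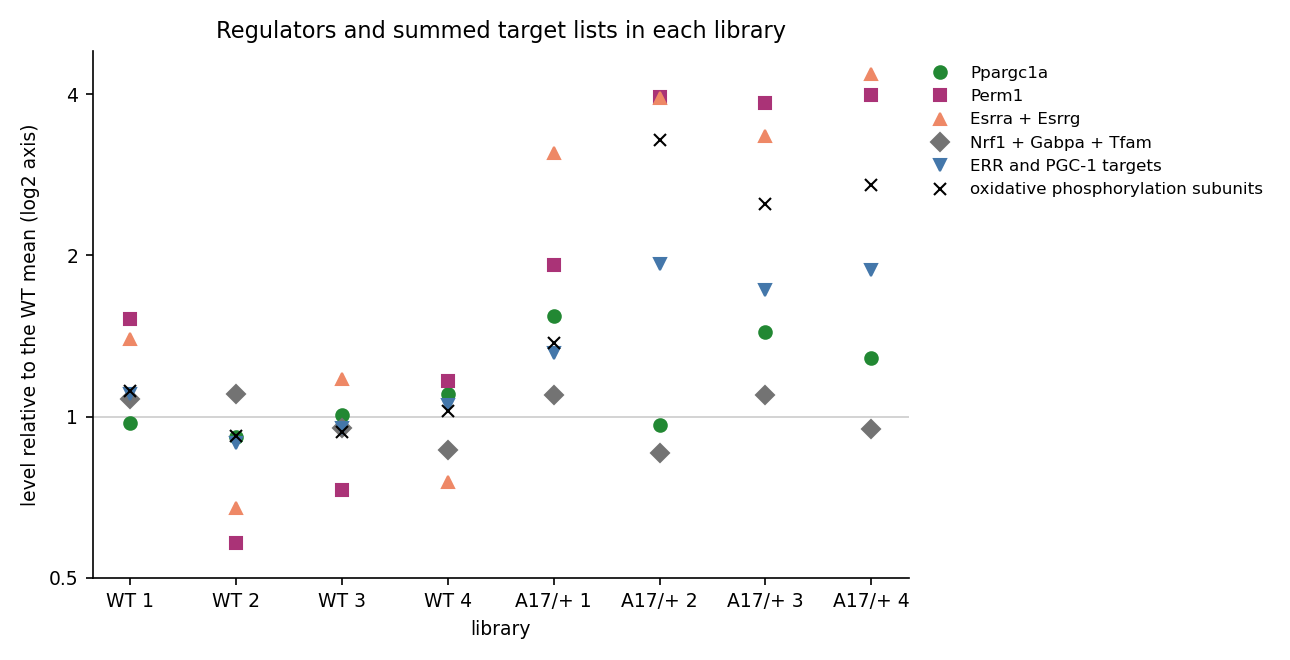
Level of 4 regulators or sums of regulators and of 2 target lists in each library (x axis), divided by its own WT mean (y axis, log2 scale). Esrra plus Esrrg and Perm1 lie above 1 in each A17/+ library, the sum of Nrf1, Gabpa and Tfam lies on both sides of 1 in both genotypes, and Ppargc1a is below 1 in A17/+ 2.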

How the data were processed

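Per the labels, mcSCRB-seq libraries, which tag polyadenylated RNA at the 3' end with unique molecular identifiers, were made from total RNA. The submitters' processing notes name cutadapt 2.10, STAR 2.7.5a, UMI-tools 1.1.1, HTSeq and mm10. Strand and annotation release are not given in the sources used here. The authors deposited raw counts per Ensembl gene and, per library, log2 values of 10709 genes. These deposited log2 values equal log2 CPM with a prior count, and were used in 1 alternative only.

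Symbols came from GENCODE mouse gene models for mm10 (19675 of 19857 genes). The regulators and gene lists were chosen with earlier results of these data known. The filter filterByExpr (minimum count 10, minimum total 15) kept 5066 genes. They were scaled by TMM and fitted with genotype alone by robust edgeR 4.0.16 in R 4.3.3, with Benjamini-Hochberg adjustment of the p-values. Regulators below the filter were tested on log2(CPM + 1) by a two-sided exact permutation test over 70 assignments, whose smallest p is 0.0286. The libraries of a group are separate mice. All regulators are named, with up to 4 genes per list that passed (smallest p), up to 2 where none did, and the 3 genes most like each fitted regulator. On simulated data of 4784 genes, the fit recovered 43.2% of genes changed 2-fold and 99% of those changed 4-fold, with 6 false among 144 calls. Alternatives were other scalings and filters, DESeq2 1.42.0, limma 3.58.1 (voom, and trend on the deposited log2 values), a replicate block, mitochondrial transcripts removed, a transcript length trend removed, thinned counts, other pseudocounts (0.5 and 2), an adjusted p under 0.1, and libraries left out. At 205696 to 485326 molecules per library, 3 counts are 6.69 to 16.3 CPM.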

Additional observations from a re-analysis of the deposited data

Results flagged for a closer look

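Within groups of 4 libraries, a library was singled out where its gap to the nearest other library was unusually large a share of the group's range (Dixon's test at the 95% level). This held for 5 of the 60 groups looked at, and chance alone singles out about 1 in 20 groups. Perm1 in A17/+ 1 (53.5 CPM) lay far below the other A17/+ libraries, of which the nearest had 107 CPM. Gabpa in A17/+ 2 (76.3 CPM) lay below the other A17/+ libraries, from 99.8 CPM. The summed salivary gland markers of WT 1 (2077 CPM) lay far above the other WT libraries, of which the nearest had 10.2 CPM. The summed macrophage markers of WT 1 (397 CPM) lay above the other WT libraries (at most 181 CPM), and the summed red cell markers of WT 2 (32.3 CPM) above the other WT libraries (at most 21.7 CPM).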

How the results depend on the processing

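The number of genes past the threshold, 453, was 228 with limma-voom, 853 with no filter, 797 with limma-trend on the deposited log2 values, 775 at an adjusted p under 0.1 and 1025 without WT 1 and A17/+ 1. Leaving out 1 library gave 210 (without WT 3) to 890 (without WT 1). It gave 771 without A17/+ 1, 247 without A17/+ 3 and 232 without A17/+ 4. With library totals as the scaling, the median over all genes shifted by -0.118, and the calls split into 279 higher and 289 lower, against 321 and 132. The number of regulators past the threshold, 1 (Perm1), was 2 with no filter and 2 with limma-trend (Perm1 and Esrra), and 1 in the other 20 alternatives. Among regulators below the filter, leaving out 1 library gave 0 to 1 with a permutation p under 0.05: 1 without WT 1 (Esrrg), 1 without WT 3 (Esrra) and 1 without A17/+ 1 (Ppard). Without both libraries numbered 1, 3 against 3 cannot go below a p of 0.1. Ppargc1b, at -0.03, was 0.055 with no filter, 0.14 without both libraries numbered 1, 0.16 without WT 4, 0.27 without A17/+ 1 and 0.061 without A17/+ 4. Leaving out 1 library gave it -0.30 to 0.27. Gabpa, at 0.05, was -0.070 with library totals, -0.034 with thinned counts, -0.037 without WT 3, -0.071 without WT 4 and -0.033 without A17/+ 1. Leaving out 1 library gave Gabpa -0.071 to 0.15. Tfam was -0.24 with the length trend removed. With library totals, list medians were -0.27 for mitochondrial DNA machinery, -0.08 for partners, -0.10 for repressors and 0.16 for dynamics, and with the length trend removed they were -0.38, 0.08, 0.08 and 0.23. The cause of these changes was not tested. Perm1, Ppargc1a, Nrf1, Esrra, Esrrg, Ppara and Ppard kept their direction in all their alternatives.

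Same-numbered libraries deviated together with correlations of 0.00, 0.07, -0.10 and -0.16. With 4 libraries per genotype these values cannot tell whether the numbers pair the mice, and the labels do not state a pairing. With a replicate block, 410 genes and 1 regulator, Perm1 (1.67, edgeR adjusted p = 0.0137), passed the threshold.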

Other observations

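Markers of slow oxidative fibres, which PGC-1alpha is known to favour, were described beside the regulators. Of 10 listed, 7 were in the table and 4 were fitted, and they summed to 287 to 366 CPM in WT and 331 to 359 CPM in A17/+. Their median log2 fold change was 0.52, and 3 of 4 were positive: Casq2 (0.82, edgeR adjusted p = 0.164), Myoz2 (0.79, adjusted p = 0.0763) and Atp2a2 (0.26, adjusted p = 0.594), none past the threshold. The fourth, Tpm3, a slow fibre tropomyosin, was lower in A17/+ (edgeR log2 fold change -0.92, adjusted p = 0.0359). Myh7, Myl3 and Tnnc1 were not analysed here. Brown fat markers, which include respiratory genes of muscle, summed to 71.1 to 113 CPM in WT and 185 to 1455 CPM in A17/+. Both fitted genes of that list, the muscle respiratory subunits Cox7a1 and Cox8b, were higher (5.03 and 4.06, edgeR adjusted p = 0.0126 and 0.0229). The brown fat genes below the filter had 23 and 31 counts in WT and A17/+ for Cidea, 18 and 32 for Dio2, 15 and 31 for Ebf2 and 14 and 34 for Prdm16.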
